A study of Mus musculus with 20 samples.

Results

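Of the 7 genes described here, 5 encode parts of the phagocyte NADPH oxidase (*Cybb*, *Cyba*, *Ncf1*, *Ncf4* and *Rac2*), and the other two are the lysozyme genes *Lyz1* and *Lyz2*. They were taken by their symbols, and all 7 were among the 16810 genes measured. They were followed in sorted spinal cord microglia of adult male CX3CR1+/eGFP mice, heterozygous animals on a C57BL/6 background in which 1 copy of the fractalkine receptor gene is replaced by eGFP. The 20 samples fell into 7 groups. Of these, 3 samples came from non-injured (NI) mice and 9 from mice with a full transection (FT), divided equally between 72 h, 1 week and 2 weeks. A lateral hemisection (HS) was made in the mice of the remaining 8 samples, 3 of them taken at 72 h, 2 after 1 week and 3 after 2 weeks. Injuries were made at the thoracic level, and a segment centred on the lesion, or the matching segment of NI mice, was sorted for high eGFP. Every animal in every group, NI included, carried the same eGFP allele. That allele also labels peripheral monocytes, which makes the gate a limit of the model, and the samples are a further one: the methods of the study count more mice than samples for NI, HS and FT, so samples were probably pools of animals, although the labels do not say so. The p-values below therefore measure the spread between these samples.

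The phagocyte NADPH oxidase moves electrons across the membrane of the phagosome or the cell surface and turns oxygen into superoxide, the start of the oxidative burst. Its membrane part is a pair of proteins, the catalytic subunit encoded by *Cybb* (NOX2) and the smaller partner encoded by *Cyba*, which keeps the catalytic subunit stable. On activation, a cytosolic complex that includes the products of *Ncf1* and *Ncf4* and a GTP-loaded Rac protein joins them, and Rac2 is the form typical of blood cells. Lysozyme is a secreted enzyme that cuts the cell wall of bacteria. Mice carry a pair of neighbouring lysozyme genes, and *Lyz2* is the one usually called the myeloid or macrophage lysozyme, whereas *Lyz1* is known from the Paneth cells of the intestine. In the spinal cord, microglia and the macrophages that enter after injury both express the oxidase and lysozyme.

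On GRCm38 (GENCODE vM21 annotation), *Lyz1* lies at chromosome 10, positions 117287797 to 117292868, and *Lyz2* at positions 117277331 to 117282321 of the same chromosome, both on the minus strand. Their coding sequences are 447 bp each and differ at 22 positions (95.1% identity), so reads can only be told apart where they cross a difference. Of all 50-base windows of the annotated transcripts, 16.1% of those of *Lyz1* and 15.4% of those of *Lyz2* also occur in the other gene. Coding bases 43 to 132 hold 13 of the coding differences and are shown as the stretch where these lie closest together, while most of the windows that tell the genes apart lie elsewhere in the transcripts, with the differing bases in capitals and the sequence read 5′ to 3′ from the reference:
Lyz1: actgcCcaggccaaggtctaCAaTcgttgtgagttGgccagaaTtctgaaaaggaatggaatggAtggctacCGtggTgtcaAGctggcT
Lyz2: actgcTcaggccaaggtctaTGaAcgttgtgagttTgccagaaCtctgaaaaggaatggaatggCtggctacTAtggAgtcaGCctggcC

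The lysozyme genes were also the 2 members whose counts followed each other most closely (below). The DNA in front of them is shown as well, and any link between it and their counts was not tested. The bases from 250 to 51 upstream of the start site, from RefSeq on GRCm38.p6, lie at chr10:117292919-117293118 for *Lyz1* and chr10:117282323-117282522 for *Lyz2* on the minus strand and were 74.3% identical when aligned. The bases between these and the start site were left out of the alignment and were the same in both genes. For *Lyz2* almost all of them lie inside the span that GENCODE gives the gene (117277331 to 117282321). Positions in front of *Lyz2* are thus counted from the RefSeq start site only. Capitals mark ACTTCC, the reverse complement of the ETS-type motif GGAAGT, which occurs once in front of each gene at base -100. It was the only match in the 250 bases, searched on both strands, and GGAAGT was in the 250 bases in front of 19.7% of 32851 RefSeq start sites. It was not found in these windows of *Cybb*, *Cyba* or *Ncf1*. The window of *Cybb* (chrX:9469325-9469574) was placed by the RefSeq start site. It lies inside the span that GENCODE gives the gene (9435252 to 9487771), so the bases in front of the GENCODE start were not searched. A second form, GAGGAA, was found in none of the 5 windows of the lysozyme genes, *Cybb*, *Cyba* and *Ncf1*, and in 23.3% of all windows. Only exact matches were counted. No RefSeq start site was available for *Rac2* or *Ncf4*, so these members were not searched.
Lyz1: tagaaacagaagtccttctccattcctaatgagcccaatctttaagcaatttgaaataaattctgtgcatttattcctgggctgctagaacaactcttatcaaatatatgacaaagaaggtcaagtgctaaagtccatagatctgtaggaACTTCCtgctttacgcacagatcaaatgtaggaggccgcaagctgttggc
Lyz2: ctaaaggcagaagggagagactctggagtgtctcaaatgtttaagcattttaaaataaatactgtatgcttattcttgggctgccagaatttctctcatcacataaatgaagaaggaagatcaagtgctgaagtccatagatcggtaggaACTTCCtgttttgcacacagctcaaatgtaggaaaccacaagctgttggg

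Levels are given as CPM, the deposited normalised read count per 1 M reads. Between 3.87 and 34.1 M reads per sample lay on the 16810 genes (median 10.1 M), 1 read was worth 0.0330 to 0.292 CPM, and these limits cover counting error only. The least covered value among the members was 357 reads (*Ncf4*) and the best covered 91242 reads (*Lyz2*), so low depth did not limit any of them. Fold changes are differences of log2(CPM + 0.5) from limma, fitted to all genes and all 20 samples. Genes were called differentially expressed (DE) where they moved 2-fold or more and the p-value, adjusted by Benjamini and Hochberg over the 16810 genes, was below 0.05. A lower count can mean fewer cells of a type or less RNA per cell, and these cannot be told apart in bulk samples.

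The 10 microglia markers checked were all present in every group, with summed levels between 13938 and 30747 CPM. Of these, 1 was DE and higher and 1 lower at 72 h after each injury. At 1 week after FT 1 was higher, and at 2 weeks after FT 1 was lower. The 3 oligodendrocyte markers summed to 1055 to 2159 CPM in NI and 344 to 2289 CPM at 2 weeks after FT (0 of 3 DE). The 3 astrocyte markers fell from 216 to 417 CPM in NI to 14.7 to 70.2 CPM at 2 weeks after FT, where 3 of 3 were DE and lower. The 8 monocyte markers were all above 0 in every group. Their sum was 34.0 to 47.3 CPM in NI, 63.7 to 146 CPM at 72 h after HS and 104 to 283 CPM at 72 h after FT, with 2 and 5 of the 8 markers DE. It was 87.0 to 108 CPM at 1 week after HS (1 of 8 DE) and 56.4 to 64.1 CPM after FT, and at 2 weeks 45.8 to 69.1 CPM after HS and 42.7 to 56.5 CPM after FT, with 0 of 8 DE in these 3 groups. The 7 neutrophil markers found summed to 43.8 to 103 CPM in NI and to 19.6 to 53.2 CPM at 72 h. At 1 week their sum was 48.1 to 51.3 CPM after HS and 32.9 to 77.1 CPM after FT. At 2 weeks it was 41.1 to 125 CPM after HS and 12.7 to 280 CPM after FT, so these samples differed widely. The 6 markers of border macrophages fell from 195 to 214 CPM in NI to 37.6 to 65.7 CPM at 2 weeks, where 6 of 6 were DE and lower after both injuries. The part of these cells in the results below was not tested.

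In NI microglia the members differed widely in level. Per kilobase of exon, *Cyba* was the highest at 802 ± 42.2 CPM per kb (SD, n = 3), followed by *Lyz2* at 561 ± 46.9. *Lyz1* had 104 ± 10.95, *Ncf1* 84.8 ± 7.98, *Rac2* 68.7 ± 1.48 and *Ncf4* 60.9 ± 2.68 CPM per kb. *Cybb* was the lowest, with 9.16 ± 0.346 CPM per kb. At 2 weeks after FT the level of *Cybb* was 50.4 ± 8.90 CPM per kb, still under that of the other members, and *Lyz2* (2816 ± 197) had passed *Cyba* (1418 ± 99.4). The place of *Cybb* depends on the length of its annotated exons (5.808 kb). Not divided by length, its mean at that time (293 CPM) was above that of *Ncf4* (133 CPM).

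After injury 4 members rose, and the other 3 were not DE in any comparison with NI. *Cybb*, *Lyz1* and *Lyz2* were DE and higher in all 6 injured groups, and *Rac2* was DE and higher at 72 h after both injuries and at 1 week after FT. The counts of members called were 4 of 7 at 72 h after HS, where 13.4% of all genes were DE, 3 of 7 at 1 week (2.18%) and 3 of 7 at 2 weeks (3.23%). After FT they were 4 of 7 at 72 h (12.2%), 4 of 7 at 1 week (4.05%) and 3 of 7 at 2 weeks (4.88%). All 21 calls, out of 42 comparisons, were higher, and the 6 comparisons share the same NI samples. The samples of an injured group all lay above those of NI for 6 members at 72 h after HS (24% of all genes), 5 at 1 week (20.2%) and 4 at 2 weeks (14.5%), and for 5 members after FT at 72 h (22.2%), 1 week (11.4%) and 2 weeks (17.3%). In the order of time, the median log2 fold change of the 7 members was 1.31, 0.76 and 0.68 for HS and 1.60, 1.25 and 0.83 for FT, beside medians of -0.11, 0.02, -0.01, -0.09, -0.03 and -0.02 over all genes.

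**Figure D1:**
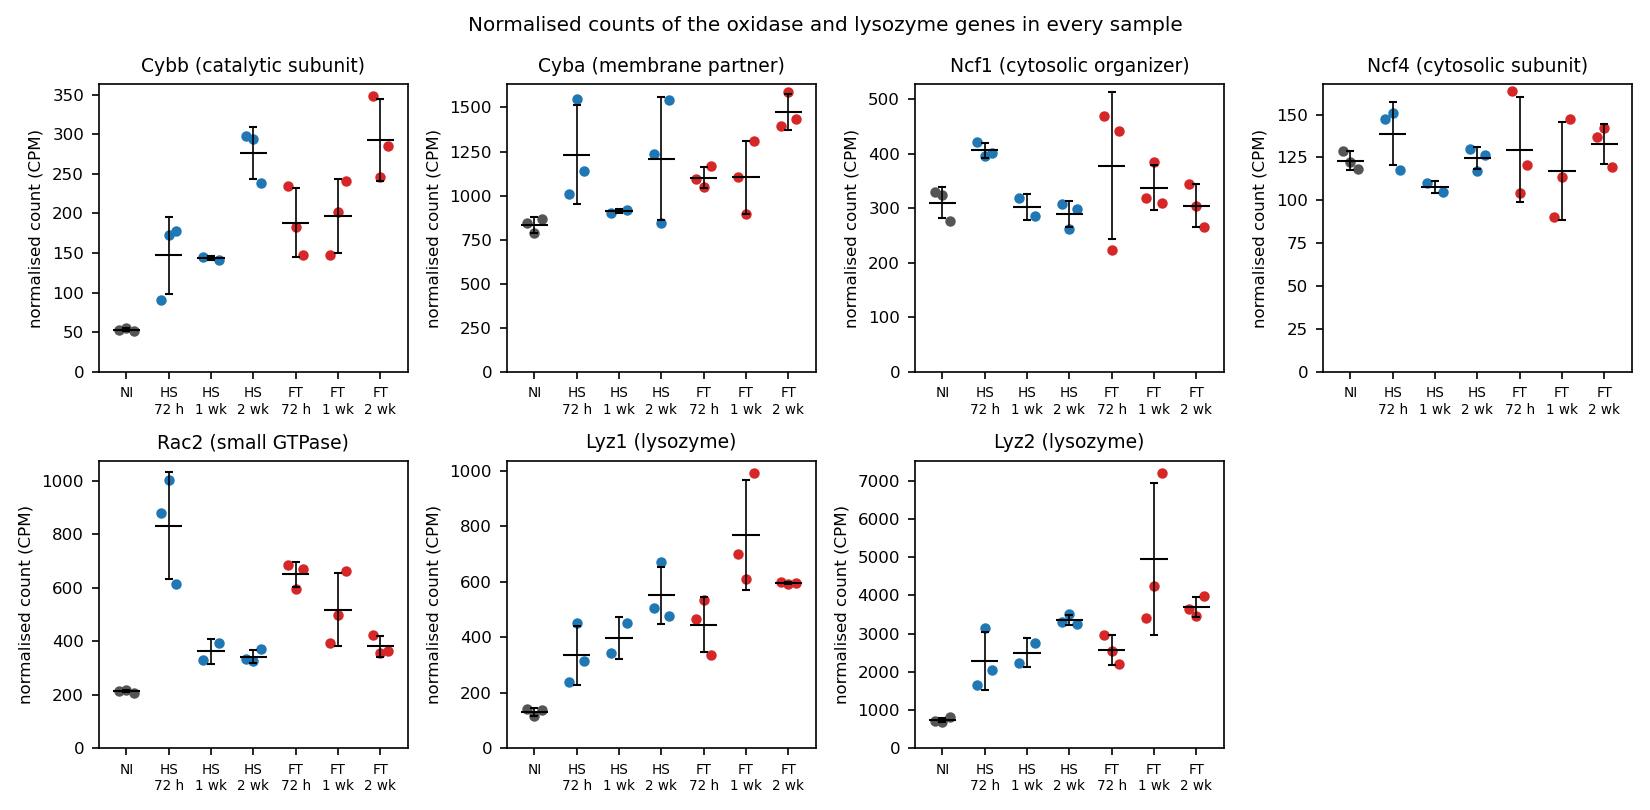
Normalised counts (CPM, linear axes from 0) of the 7 genes in each of the 20 samples; points are samples (grey NI, blue HS, red FT), horizontal lines are group means and error bars are SD. All injured samples of *Cybb*, *Rac2*, *Lyz1* and *Lyz2* lie above the NI samples, while those of *Ncf4* surround them.

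*Cybb* (chromosome X, 9435252 to 9487771, minus strand) had 52.4, 55.5 and 51.7 CPM in the NI samples. At 72 h it had 90.8, 172 and 178 CPM after HS and 234, 183 and 148 CPM after FT. At 1 week the values were 145 and 141 CPM for HS and 147, 202 and 241 CPM for FT, and at 2 weeks 298, 294 and 239 CPM after HS and 348, 246 and 285 CPM after FT. All 17 injured samples lay above all NI samples, and apart from NI no neighbouring groups in the order of means were separated by their ranges. The log2 fold change from NI was 1.40 (SE 0.24, adjusted p = 0.0001539) at 72 h, 1.42 (SE 0.26, adjusted p = 0.002723) at 1 week and 2.36 (SE 0.24, adjusted p = 6.914e-07) at 2 weeks after HS. After FT it was 1.79 (SE 0.24, adjusted p = 1.009e-05), 1.85 (SE 0.24, adjusted p = 2.161e-05) and 2.44 (SE 0.24, adjusted p = 3.175e-07). The rises at 2 weeks were 5.14-fold after HS and 5.41-fold after FT. The summed monocyte markers at that time were 45.8 to 69.1 CPM after HS and 42.7 to 56.5 CPM after FT, beside 34.0 to 47.3 CPM in NI, and their part in the rise was not tested. The call at 72 h after HS was lost when every column was scaled to the same total (log2 fold change 0.89), and that at 1 week after HS without replicate 1 of that group (1.40, adjusted p = 0.0538).

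*Cyba* (chromosome 8, 122424776 to 122432930, minus strand), the partner that shares the membrane complex with the *Cybb* product, had 846, 785 and 870 CPM in NI. The values at 72 h were 1009, 1548 and 1139 CPM after HS and 1092, 1048 and 1165 CPM after FT. For HS they were 902 and 918 CPM at 1 week and 1237, 845 and 1542 CPM at 2 weeks, and 1107, 894 and 1308 CPM and 1395, 1590 and 1434 CPM at these times after FT. The injured samples lay above NI in 5 of the 6 groups, the exception being HS at 2 weeks, but the distances were small and no comparison reached 2-fold. The largest was at 2 weeks after FT, with a log2 fold change of 0.82 (95% interval 0.36 to 1.28, adjusted p = 0.02016). In the other 5 comparisons it lay between 0.13 and 0.54, with adjusted p-values from 0.07114 to 0.9084.

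Within each sample, the ratio of the 2 membrane subunits moved (plot of the ratios). *Cybb* had 0.0640 ± 0.00590 counts for each count of *Cyba* in NI (SD, n = 3), 0.119 ± 0.0339 at 72 h, 0.158 ± 0.00493 at 1 week (n = 2) and 0.248 ± 0.0963 at 2 weeks after HS. After FT the ratio was 0.172 ± 0.0439, 0.181 ± 0.0468 and 0.201 ± 0.0476 at the same times. The lowest injured sample (0.0900) was above the highest NI sample (0.0707). On the log2 scale the 17 injured samples were 1.42 above the 3 NI samples (exact permutation test, two-sided, p = 0.000877, the smallest that 1140 divisions of the samples can give; adjusted p = 0.00263 over the 3 ratios tested). A ratio of counts from 1 sample does not depend on how the samples were scaled.

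**Figure D2:**
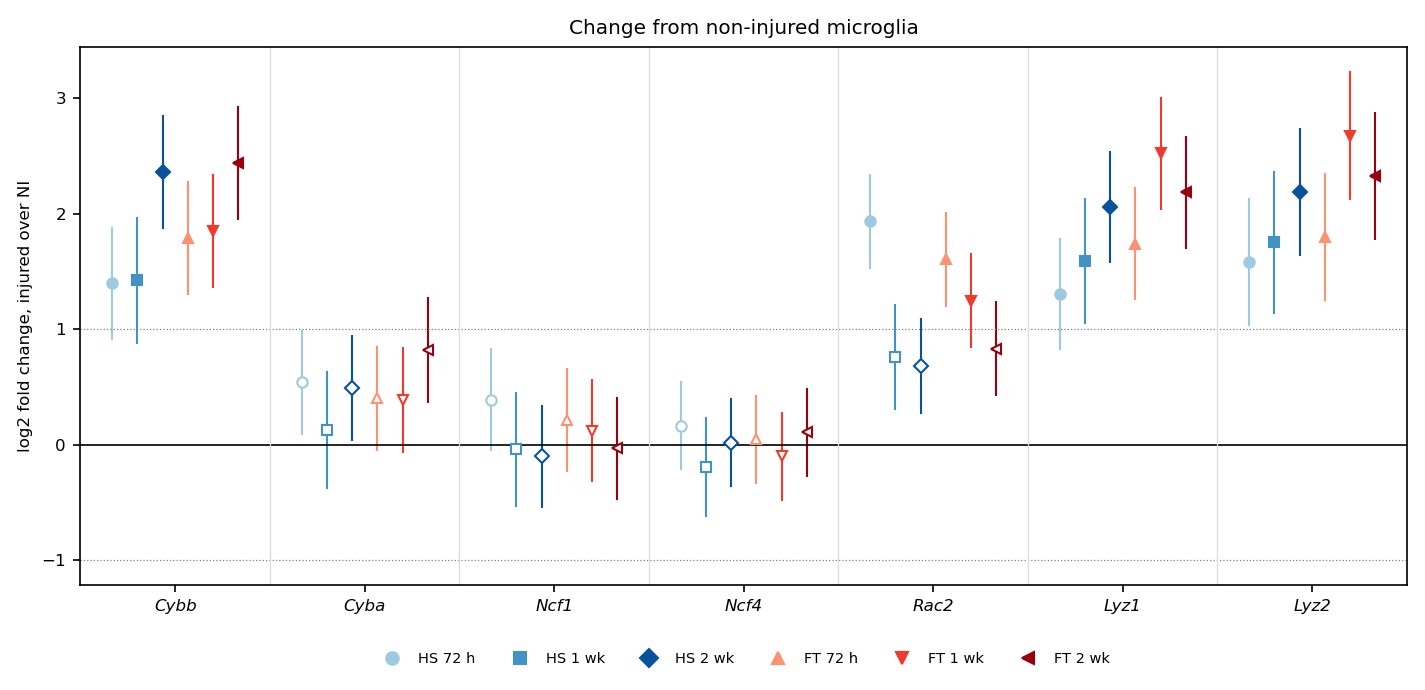
Log2 fold change from NI (y axis) of each gene (x axis) in the 6 injured groups, with 95% intervals from limma; filled symbols are DE and dotted lines mark 2-fold. *Cybb*, *Lyz1* and *Lyz2* are filled in all 6 comparisons, *Rac2* in 3, and *Cyba*, *Ncf1* and *Ncf4* in none.

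Neither cytosolic subunit was DE in any comparison with NI. *Ncf1* (chromosome 5, 134220053 to 134229625, minus strand), which encodes the organizer that is phosphorylated on activation, had 331, 324 and 277 CPM in NI. The highest values after injury were at 72 h, with 423, 397 and 401 CPM after HS and 470, 224 and 442 CPM after FT, so that all HS samples lay above NI and the FT samples lay on both sides of it. At 1 and 2 weeks the samples ranged from 263 to 386 CPM. The log2 fold changes from NI lay between -0.10 (2 weeks after HS) and 0.39 (72 h after HS), and the upper ends of the 95% intervals were 0.84 at 72 h after HS and 0.66 at 72 h after FT, both under a 2-fold rise. The exons of *Ncf1* overlap those of *Gtf2ird2* on the opposite strand over 408 bp (11.1% of their length), and the strand of the reads was not stated.

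*Ncf4* (chromosome 15, 78244801 to 78262580, plus strand), whose product binds a phosphoinositide of the phagosome membrane, had 129, 122 and 118 CPM in NI and ranged from 90.3 to 164 CPM over the 17 injured samples. The injured samples overlapped NI in 5 groups and lay below NI in HS at 1 week (110 and 105 CPM), as did 17.1% of all genes. Its log2 fold changes were between -0.19 and 0.16, with adjusted p-values from 0.5328 to 0.9817, and the 95% intervals reached from -0.62 to 0.55 at most. Rises or falls of 2-fold are outside these intervals, and smaller ones are not. The direction of these small values, and of those of *Ncf1* and *Cyba*, depended on scaling. The deposited columns summed to 777426 to 830481 CPM in NI and 878070 to 1202186 CPM after injury. With every column set to the same total the median of all genes moved to between -0.52 and -0.17. At 72 h after FT *Ncf4* was then at -0.42 (limma adjusted p = 0.04517, under 2-fold) and *Cyba* at -0.07.

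*Rac2* (chromosome 15, 78559167 to 78572783, minus strand), the GTPase of the complex, had 214, 217 and 208 CPM in NI. At 72 h it had 880, 1003 and 612 CPM after HS and 683, 596 and 670 CPM after FT. The values in HS mice were 330 and 395 CPM at 1 week and 334, 326 and 369 CPM at 2 weeks. Those in FT mice were 392, 500 and 661 CPM at 1 week and 424, 355 and 362 CPM at 2 weeks. All injured samples lay above NI, and the time with the highest mean was 72 h after both injuries, the time at which the means of both lysozymes were lowest among the injured groups of the same injury. The log2 fold change from NI was 1.93 (SE 0.20, adjusted p = 3.244e-07) at 72 h after HS, 1.60 (SE 0.20, adjusted p = 4.472e-06) at 72 h after FT and 1.25 (SE 0.20, adjusted p = 0.000281) at 1 week after FT. The last of these was under 2-fold (0.90) when columns were scaled to 1 total and 0.93 after quantile normalization. At 2 weeks it was 0.68 after HS and 0.83 after FT, with adjusted p-values of 0.04892 and 0.008884 but under 2-fold, and at 1 week after HS 0.76 (adjusted p = 0.07692).

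The ubiquitous relative *Rac1* can take the same place in the complex, and its counts were 203, 199.1 and 217 CPM in NI. There was about 1 count of *Rac2* for each count of *Rac1* in NI (1.03 ± 0.0683, SD, n = 3). The ratio was 3.01 ± 0.921 at 72 h, 1.78 ± 0.150 at 1 week (n = 2) and 1.55 ± 0.0247 at 2 weeks after HS, and 2.39 ± 0.510, 2.19 ± 0.804 and 1.56 ± 0.212 after FT. All injured samples were above the highest NI sample (1.09), the lowest of them at 1.34. The mean log2 ratio of the injured samples was 0.95 above that of NI (exact permutation test, two-sided, p = 0.00351, adjusted p = 0.00526 over the 3 ratios).

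**Figure D3:**
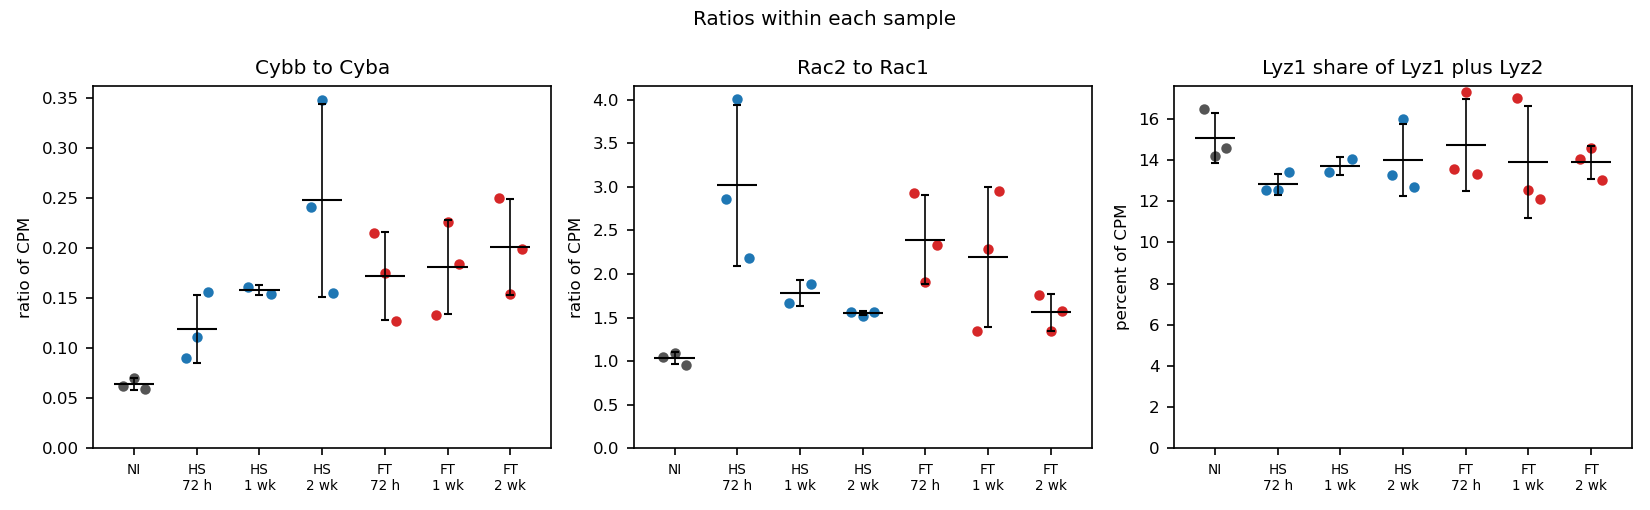
Ratios within each sample: *Cybb* to *Cyba* and *Rac2* to *Rac1* as ratios of CPM, and *Lyz1* as percent of *Lyz1* plus *Lyz2*; points are samples, lines are means and bars are SD, and axes start at 0. The first 2 ratios are above NI in all 17 injured samples, with the highest mean for *Cybb* to *Cyba* at 2 weeks after HS (0.248) and for *Rac2* to *Rac1* at 72 h after HS (3.01), while the *Lyz1* share stays between 12.1% and 17.3%.

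*Lyz2* had 711, 695 and 809 CPM in NI. After HS it had 1669, 3143 and 2040 CPM at 72 h, 2228 and 2767 CPM at 1 week and 3308, 3515 and 3267 CPM at 2 weeks. After FT it had 2978, 2551 and 2199 CPM at 72 h, 3415, 4254 and 7195 CPM at 1 week and 3659, 3472 and 3985 CPM at 2 weeks. Every injured sample was at least 1669 CPM and thus above every NI sample, and the widest group was FT at 1 week, where replicate 3 was well above the other two. The log2 fold change from NI was 1.58 (SE 0.27, adjusted p = 0.0001494), 1.75 (SE 0.30, adjusted p = 0.001087) and 2.19 (SE 0.27, adjusted p = 1.051e-05) after HS at 72 h, 1 week and 2 weeks. After FT it was 1.79 (SE 0.27, adjusted p = 4.184e-05), 2.68 (SE 0.27, adjusted p = 7.279e-07) and 2.33 (SE 0.27, adjusted p = 3.298e-06). Without any 1 sample the value at 1 week after FT stayed between 2.37 and 2.91. The call at 1 week after HS was lost without replicate 2 of that group (1.60, adjusted p = 0.05061).

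*Lyz1* had 140, 115 and 138 CPM in NI. It had 239, 451 and 316 CPM at 72 h, 345 and 452 CPM at 1 week and 507, 670 and 476 CPM at 2 weeks after HS. After FT it had 467, 534 and 338 CPM at 72 h, 701, 612 and 992 CPM at 1 week and 598, 593 and 597 CPM at 2 weeks. As for *Lyz2*, the injured samples were all above NI and the highest mean was at 1 week after FT, where its range did not meet that of the next group, FT at 2 weeks. The log2 fold change from NI was 1.31 (adjusted p = 0.0002702), 1.59 (adjusted p = 0.0007674) and 2.06 (adjusted p = 3.885e-06) after HS, and 1.74 (adjusted p = 1.28e-05), 2.52 (adjusted p = 2.47e-07) and 2.18 (adjusted p = 1.261e-06) after FT. At 72 h after HS the value was under 2-fold with columns scaled to 1 total (0.80) or after quantile normalization (0.85).

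*Lyz1* made up 15.1 ± 1.21% of the summed counts of both genes in NI (SD, n = 3) and between 12.8 ± 0.513% (72 h after HS, n = 3) and 14.7 ± 2.23% (72 h after FT, n = 3) after injury. The mean log2 ratio of *Lyz1* to *Lyz2* was 0.15 lower in the injured samples, a difference that did not pass the test (exact permutation test, two-sided, p = 0.168, the same after adjustment). The means of all 6 injured groups were below that of NI, and a small fall of the share cannot be told from none with 3 NI samples. With the 2 genes summed into 1, the values do not depend on how counted reads were divided between them. Any read counted for neither gene stays missing. The log2 fold change of the sum from NI was 1.54, 1.73 and 2.17 after HS and 1.79, 2.66 and 2.31 after FT, DE in all 6 comparisons.

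No member was DE between FT and HS, at 72 h, 1 week or 2 weeks (0 of 21 comparisons), and neither was any other gene with limma (0% of 16810 at each time). The edgeR quasi-likelihood and likelihood ratio tests and DESeq2 also called 0 members, while over all genes the likelihood ratio test called 8 and DESeq2 7 at 1 week, and each called 1 at 2 weeks. At an unadjusted p under 0.05, limma gave 3 members at 1 week and 0 at the other times, beside 4.31%, 3% and 2.61% of all genes at 1 week, 72 h and 2 weeks. The 3 were *Lyz1*, *Lyz2* and *Rac2*. At 1 week *Lyz1* was 0.93 higher after FT on the log2 scale (95% interval 0.39 to 1.47, adjusted p = 0.9827), *Lyz2* 0.92 higher (0.30 to 1.54, adjusted p = 0.999) and *Rac2* 0.49 higher (0.03 to 0.95, adjusted p = 0.999). The FT samples of both lysozymes lay above the HS samples at that time, as did 6.79% of all genes. At 72 h the differences were 0.43 for *Lyz1*, 0.21 for *Lyz2*, 0.39 for *Cybb* and -0.33 for *Rac2*, and at 2 weeks all 7 lay between 0.07 and 0.33. The 95% intervals at 2 weeks reached from -0.42 to 0.78, so that 2-fold differences lay outside them, whereas at 1 week the intervals of both lysozymes reached beyond 2-fold.

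**Figure D4:**
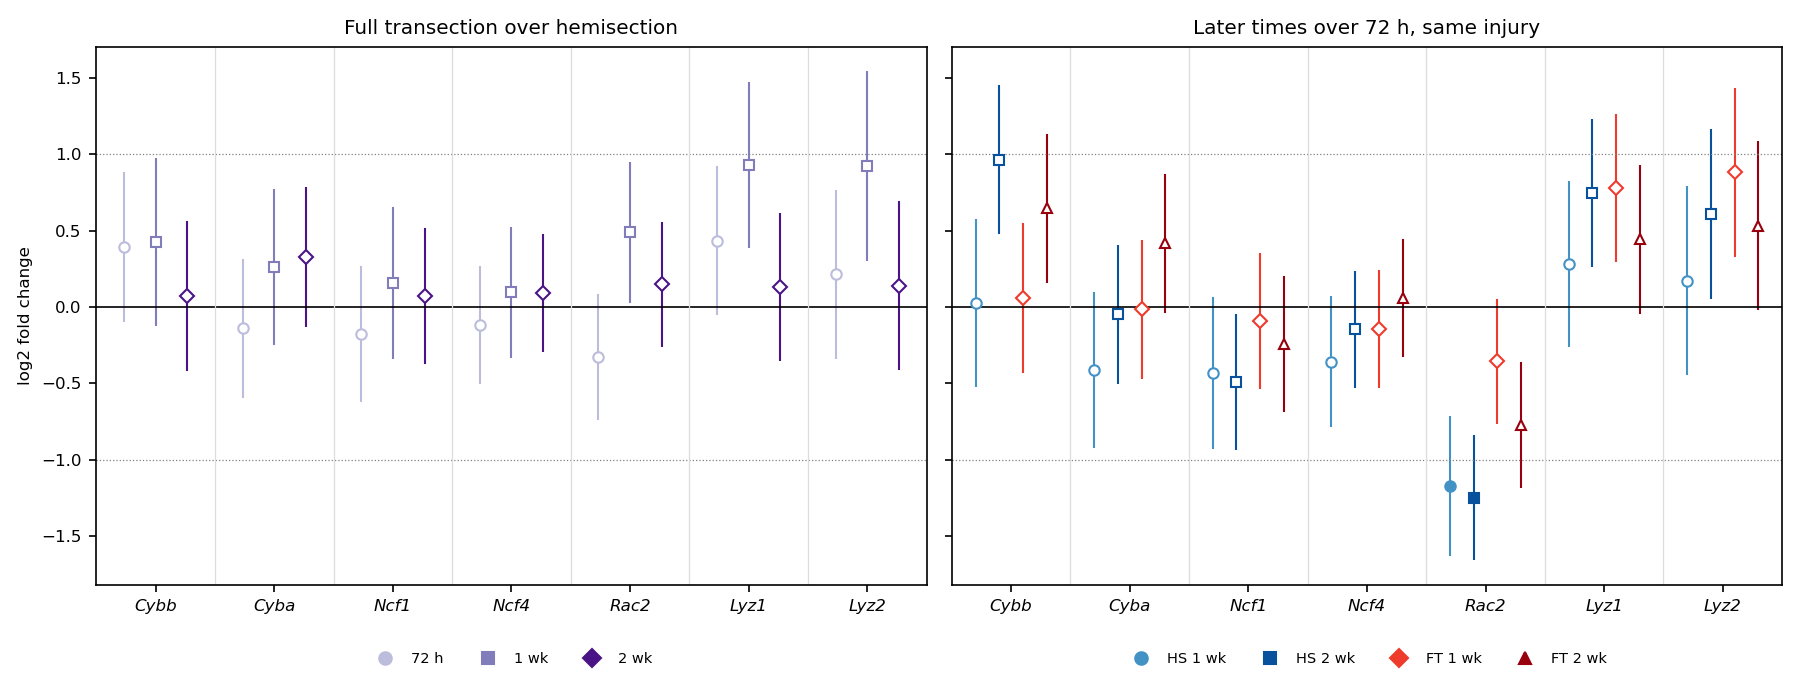
Log2 fold change with 95% intervals (limma) of each gene between FT and HS at 3 times (left) and between later times and 72 h of the same injury (right); filled symbols are DE and dotted lines mark 2-fold. No symbol is filled on the left, and on the right only *Rac2*, at 1 and 2 weeks after HS (-1.17 and -1.25).

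Between times after the same injury, 2 of 42 comparisons of members were called, both for *Rac2*. It fell by 1.17 on the log2 scale from 72 h to 1 week after HS (SE 0.22, adjusted p = 0.001662), where 6.03% of all genes were DE and 4.07% lower, and by 1.25 from 72 h to 2 weeks (SE 0.20, adjusted p = 0.0002254), where 4.74% were DE and 3.37% lower. After quantile normalization both differences were under 2-fold (-0.85 and -0.99), and with columns scaled to 1 total the first was -0.88. After FT the difference from 72 h was -0.36 (adjusted p = 0.3294) at 1 week and -0.77 (adjusted p = 0.02133) at 2 weeks, where 3.44% and 3.81% of all genes were DE. Whether the course of *Rac2* differed between the injuries was not tested. *Cybb* was 0.97 above its level at 72 h at 2 weeks after HS (adjusted p = 0.01115) and *Lyz1* 0.75 above (adjusted p = 0.04404), both short of 2-fold. The difference of *Cybb* was past 2-fold and DE after quantile normalization (1.17), with columns scaled to 1 total (1.15), and without HS 72 h replicate 2 (1.11), HS 72 h replicate 3 (1.14) or HS 2 weeks replicate 3 (1.07). After FT the differences of *Lyz1* and *Lyz2* between 72 h and 1 week were 0.78 and 0.88 (adjusted p = 0.05486 and 0.05657), the second of them DE without FT 1 week replicate 1 (1.11) or with columns scaled to 1 total (1.00), and that of *Cybb* between 72 h and 2 weeks was 0.65 (adjusted p = 0.1222). From 1 to 2 weeks the share of DE genes was 0.0119% for HS and 0.0714% for FT, with 0 members among them. The mean sum of the monocyte markers was, as that of *Rac2*, highest at 72 h after each injury, although after HS the samples at 72 h (63.7 to 146 CPM) and 1 week (87.0 to 108 CPM) overlapped, and the part of monocytes in its course was not tested.

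The other genes of the pathway were taken from lists of partners, of which 51 of 58 were in the table. At 72 h 5 rose and 4 fell after HS (9.08% and 4.31% of all genes), and 4 rose and 2 fell after FT (8.14% and 4.09%). At 1 week 0 were called after HS and 1 rose after FT (1.7% and 2.86% of all genes were higher, and 0.482% and 1.2% were lower). At 2 weeks 1 fell after HS (2.43% higher and 0.797% lower over all genes), and 1 rose and 1 fell after FT (3.53% and 1.36%). The median log2 fold change of the 51 genes lay between -0.20 and -0.02 over the 6 comparisons. These 19 calls, 11 higher and 8 lower, became 3 higher and 32 lower when columns were scaled to 1 total and 5 higher and 13 lower after quantile normalization. The number called in each direction thus depended on the scaling.

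**Figure D5:**
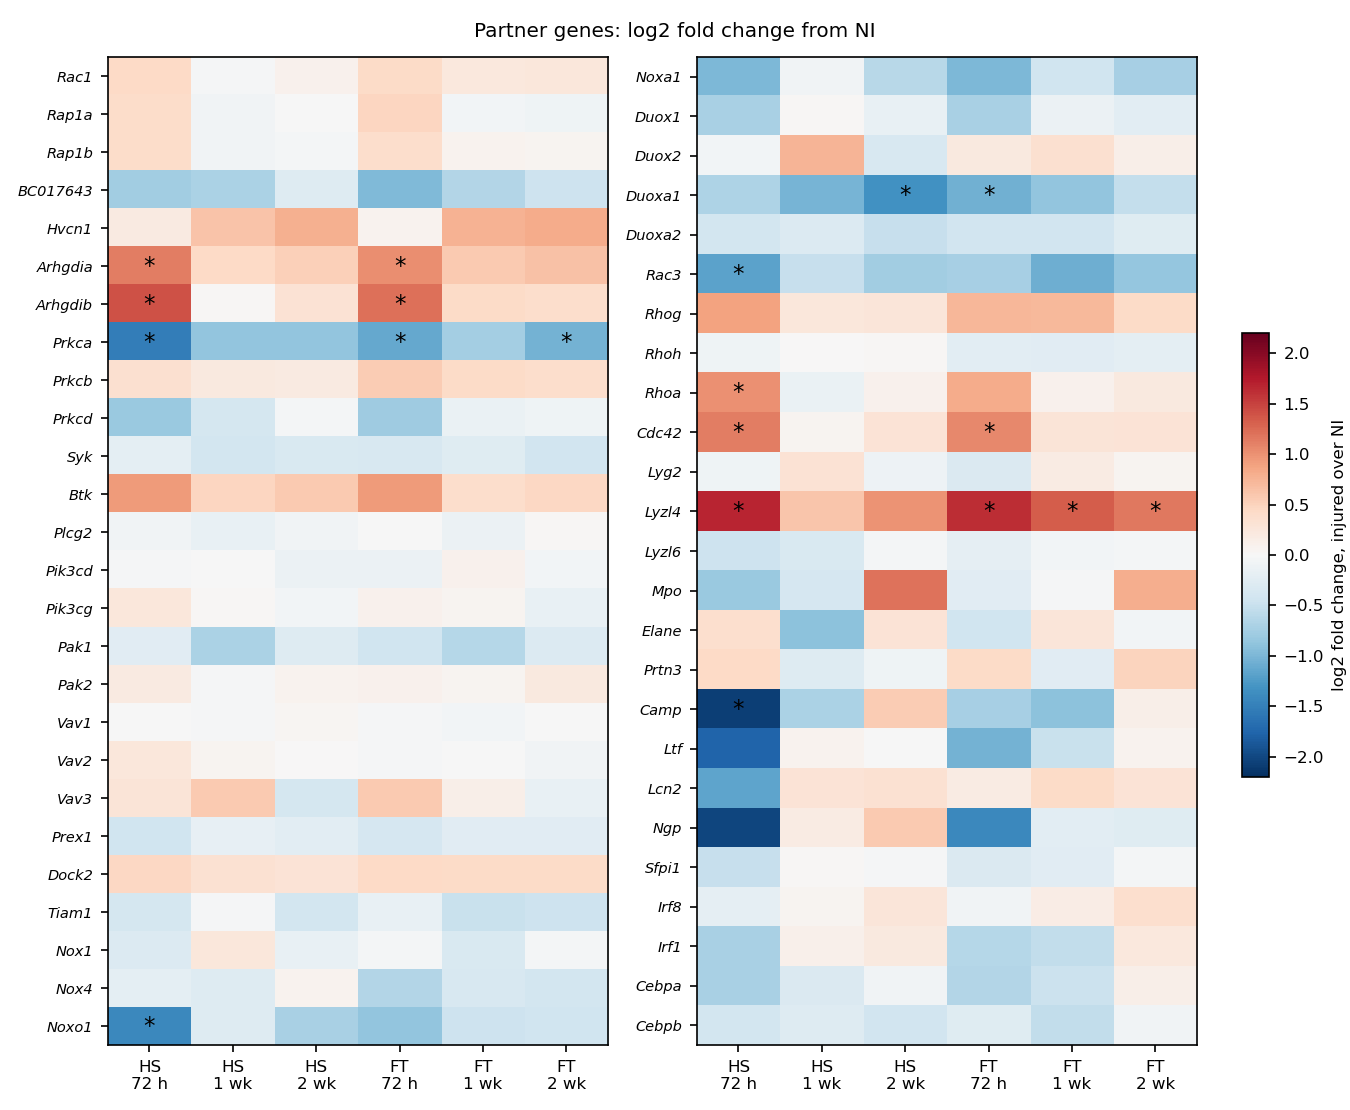
Log2 fold change from NI (color, -2.2 to 2.2) of the 51 partner genes (rows) in the 6 injured groups (columns); asterisks mark DE genes. Most cells are pale; *Arhgdia*, *Arhgdib* and *Cdc42* are marked at 72 h after both injuries and *Lyzl4* in 4 columns.

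Among the direct partners of the oxidase, *Rac1* had log2 fold changes from NI between -0.02 (1 week after HS) and 0.43 (72 h after HS), and *Hvcn1*, the proton channel that balances the charge of the burst, between 0.08 (72 h after FT) and 0.82 (2 weeks after FT). Neither was DE in any comparison with NI. *Cybc1*, a chaperone of the membrane pair that the table lists as *BC017643*, was also not DE, with a lowest value of -0.96 at 72 h after FT (adjusted p = 0.007847, under 2-fold).

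*Arhgdia* and *Arhgdib* encode inhibitors that hold Rac proteins in the cytosol, and both rose at 72 h. *Arhgdib*, the form of blood cells, changed by 1.40 after HS and 1.203 after FT on the log2 scale, and *Arhgdia* by 1.13 and 1.02. Of other small GTPases, *Cdc42* rose at 72 h by 1.12 after HS and 1.06 after FT, and *Rhoa* by 1.00 after HS. With columns scaled to 1 total, each of these 7 rises was under 2-fold, whereas those of *Rac2* at 72 h were 1.42 after HS and 1.13 after FT. Among kinases, *Prkca* fell by 1.52 and 1.13 at 72 h after HS and FT and by 1.04 at 2 weeks after FT. The other lower calls were *Camp*, an antimicrobial peptide of neutrophils, *Noxo1*, the organizer of another oxidase, and *Rac3* at 72 h after HS (-2.07, -1.42 and -1.18), and *Duoxa1*, a maturation factor of the dual oxidases, at 72 h after FT (-1.06) and 2 weeks after HS (-1.33). *Noxo1*, *Camp*, *Rac3* and *Duoxa1* were at low levels in NI (means of 8.49, 4.86, 1.57 and 4.27 CPM). The call of *Camp* was lost with DESeq2 (-2.43) and on leaving out single samples of several groups (-2.41 to -1.48). Leaving out 1 sample also ended the calls of *Rac3* (NI replicate 1, -1.09, or HS 72 h replicate 3, -0.997), *Duoxa1* at 2 weeks after HS (NI replicate 2, -1.198) and at 72 h after FT (NI replicate 2, -0.93, or FT 72 h replicate 1, -0.70), *Rhoa* (NI replicate 3, 0.76, or HS 72 h replicates 1 or 3, 0.76 and 0.96), *Cdc42* at 72 h after FT (FT 72 h replicate 2, 0.94), *Arhgdia* at 72 h after FT (NI replicate 3, 0.95, or FT 72 h replicates 1 or 3, 0.92 and 0.997) and *Prkca* at 72 h (FT 72 h replicate 1, -0.89) and 2 weeks after FT (NI replicate 1, -0.98, or FT 2 weeks replicate 1, -0.94). Of the other catalytic NADPH oxidase genes measured (*Nox1*, *Nox4*, *Duox1* and *Duox2*), none was DE, and their NI means were between 0.551 and 1.42 CPM.

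Of 7 genes for granule proteins of neutrophils that were measured, 0 were DE and higher in any comparison with NI (1, *Camp*, was lower), and their median log2 fold change was -1.16 at 72 h after HS and 0.33 at 2 weeks after HS. Of 3 other lysozyme family genes measured, *Lyzl4* was DE and higher at 72 h after HS (1.68, adjusted p = 4.44e-05) and in all 3 FT groups (1.63, 1.34 and 1.15). Its level was low, with 2.50, 2.70 and 3.17 CPM in NI and 7.38 to 14.8 CPM at 72 h after HS. None of the 5 transcription factor genes of myeloid cells that were measured was DE in any comparison, among them *Spi1* (listed as *Sfpi1*), whose product PU.1 binds ETS-type motifs.

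The member profiles were compared over the 20 samples by the root mean square (RMS) difference of log2 values, each gene centred on its own mean. *Lyz1* and *Lyz2* were closest (0.17), followed by *Ncf1* and *Ncf4* (0.25) and *Cyba* and *Ncf4* (0.30), and *Cybb* was nearer to *Lyz2* (0.38) than to its partner *Cyba* (0.66). *Rac2* was at least 0.54 from any other member. Among 9864 genes with a mean of at least 5 CPM, members left out, the most alike to *Cybb* were *Ctse*, which encodes cathepsin E, and *Nceh1*, a cholesterol ester hydrolase (RMS 0.25 for each). *Nceh1* was also second for *Lyz2*, after the sterol exporter *Abcg1* (0.32 and 0.28), and *Npr1* and *Ms4a7* were nearest to *Lyz1* (0.30 for both). *Psmb10*, a subunit of the immunoproteasome, and *Tmem219* were nearest to *Cyba* (0.15 and 0.16), *Akr1a1* and *Lgals9* to *Rac2* (0.19 and 0.20), *Phka2* and *Ap1b1* to *Ncf1* (0.16 each) and *Sar1a* and *Vav1* to *Ncf4* (0.14 each). The distances are descriptions over samples that share the same groups and libraries. Genes that vary little over the samples are close by this measure, and *Cyba*, *Ncf1* and *Ncf4* were not DE in any comparison with NI.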

How the data were processed

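Polyadenylated RNA of sorted cells was amplified and sequenced. According to their notes, the authors mapped reads with TopHat2 2.0.9 to mm10, counted them per gene with HTSeq 0.5.4p3, removed genes with few reads and normalised by library size in edgeR. The deposited signal is this normalised count; 99.989% of 336200 values were whole reads within 0.001 of a read after division by each column's step, so reads were recovered for count tests. Here log2(CPM + 0.5) was fitted with limma 3.58.1 (R 4.3.3; intensity trend, 1 mean per group, 20 samples), with the count tests of DESeq2 1.42.0 and edgeR 4.0.16 as alternatives, and ratios were compared by exact permutation. The fits were tested on simulated counts. All 19 replicate pairs differed by more than sampling noise, the most where FT 1 week replicate 1 was compared with replicates 2 and 3. Without that sample 1078 genes were DE at 1 week after FT, beside 681 with it. A gene of the partner lists is not reported here. Members and gene lists were chosen with earlier results of these data known. Named beside the members are partner genes that were DE against NI, *Rac1* and *Hvcn1*, and the 2 genes most like each member; *Cybc1*, *Spi1* and the other oxidases were named after their values were seen. Same-numbered FT and HS samples at 72 h deviated together in all 3 pairs (correlation 0.155 to 0.313). So did HS samples of 72 h and 1 week (2 pairs, 0.171 to 0.313) and of 1 and 2 weeks (2 pairs, 0.139 to 0.223). In each other comparison the lowest correlation was weak or negative. The labels give no source for such a pairing. Sequencing batches and strand were not stated in the sources used here.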

Additional observations from a re-analysis of the deposited data

Results flagged for a closer look

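*Rac2* changed with time after HS by direct test: its log2 level was -1.17 at 1 week and -1.25 at 2 weeks relative to 72 h, with ranges over samples left out of -1.38 to -1.02 and -1.46 to -1.10. Groups of 2 or 3 samples are too small for a test of single outlying samples.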

How the results depend on the processing

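The 21 member calls against NI stayed between 18 and 24 under the other settings, apart from 15 of 36 when the lysozymes were summed, and between 20 and 21 when 1 sample was left out. For FT against HS every setting and every left-out sample gave 0. The 2 calls between times, both of *Rac2*, were lost after quantile normalization, which called 1 other (*Cybb*, HS 2 weeks against 72 h), and the count was 5 with no fold limit, and 2 to 3 with 1 sample left out. The 19 partner calls became 35 with columns scaled to 1 total, 38 with no fold limit, and 16 to 21 with 1 sample left out. With 1 sample left out, the difference in mean log2 ratio, injured minus NI, ranged from 1.36 to 1.49 for *Cybb* to *Cyba*. It ranged from 0.89 to 0.99 for *Rac2* to *Rac1* and from -0.20 to -0.08 for *Lyz1* to *Lyz2*.

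Values that changed sign were small and not DE. That of *Ncf4* at 72 h after FT with columns scaled to 1 total (-0.42, limma adjusted p = 0.04517) passed the limit on p but was under 2-fold. After quantile normalization, *Cyba* was -0.19, -0.20, -0.22 and -0.16 (HS 72 h, HS 1 week, FT 72 h, FT 1 week), *Ncf1* -0.13, -0.25 and -0.18 (HS 72 h, FT 72 h, FT 1 week), and *Ncf4* -0.28, -0.18, -0.32 and -0.14 (HS 72 h, HS 2 weeks, FT 72 h, FT 2 weeks). *Rac1* at 72 h after HS was -0.10 and *Hvcn1* at 72 h after FT -0.31. With columns scaled to 1 total, *Cyba* was -0.083 and -0.068 (HS 1 week, FT 72 h), *Ncf1* -0.12, -0.25 and -0.23 (HS 72 h, FT 72 h, FT 1 week), *Ncf4* -0.34, -0.31, -0.42 and -0.29 (HS 72 h, HS 2 weeks, FT 72 h, FT 2 weeks), *Rac1* -0.075 and *Hvcn1* -0.39. The cause was not tested.

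With 1 sample left out, the sign changed within -0.12 to 0.042 (*Ncf1*, HS 1 week), -0.12 to 0.065 (*Ncf1*, FT 2 weeks), -0.014 to 0.059 (*Ncf4*, HS 2 weeks), -0.13 to 0.19 (*Ncf4*, FT 72 h), -0.28 to 0.074 (*Ncf4*, FT 1 week) and -0.065 to 0.022 (*Rac1*, HS 1 week).

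With the replicate number as a block, the count against NI was 21, between FT and HS 0, between times 2 and for partners 19, so the block changed none of these counts. Depth did not limit the members; 2 to 3 samples per group limit the precision, and no batch was given that could be separated from the groups.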
